A study of Mus musculus with 6 samples.

Results

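Transcripts of the muscle fibre were described in fibroblasts sorted from the mouse synovium, the membrane that lines the joint cavity, after an immune complex challenge. The 39 genes encode parts of the sarcomere, the contractile unit of striated muscle, and proteins of fibre calcium handling and energy supply. They were chosen by name, and 38 of the 39 were among the 24348 genes of the count table. Cox6a2, a muscle form of a cytochrome c oxidase subunit, was absent from it. Each gene listed there was detected in 3 or more libraries, so the table was itself selected on detection. A minimum of 10 counts in at least 3 libraries left 35 of the 38 for testing, among 19925 genes tested. Tnnc2, Smpx and Pgam2 did not reach this minimum.

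All 6 libraries came from the knee synovium of adult wild-type C57BL/6 mice, with 3 from mice given an intravenous injection of immune complexes (IC) and 3 from control mice titled vehicle. The IC of the study were ovalbumin bound by rabbit antibodies to ovalbumin. The quadriceps muscle was taken off before the synovium was dissected and digested with collagenase, and fibroblasts were then sorted by flow cytometry. The labels gave no age or time after injection, and did not say whether a library came from 1 mouse, so p-values cover the spread between these libraries, which may in part be technical. Total counts ran from 40114331 to 56714304 per library. The sorted cells carried fibroblast transcripts at high levels, with Col1a1, a collagen chain of connective tissue, at a mean of 2203 RPKM and Pdgfra, a fibroblast surface receptor, at 99.9 RPKM. RPKM here is reads per kilobase of exon, scaled to equal library totals, and it is the scale used wherever the levels of different genes are compared.

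In a muscle fibre, thick filaments of myosin pull on thin filaments of actin, which are anchored at the Z disc, while titin spans from the Z disc to the M band at the middle of the sarcomere. Contraction starts when calcium leaves the sarcoplasmic reticulum through the ryanodine receptor and binds troponin C on the thin filament, and it ends when a calcium pump returns the ion to its store. Most of these proteins exist as fast and slow paralogues, which mark fast and slow fibre types, and fibroblasts use non-muscle members of the same families for their own cytoskeleton.

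Promoter windows of 4 of the genes are shown because MEF2 and serum response factor are classical regulators of muscle genes. Myh1 and Asb5 were lower after IC by DESeq2, Acta1 is the skeletal muscle actin, and Pygm had a fold change near 0. Each is the 250 bases before the RefSeq start on GRCm38.p6, read 5′ to 3′ on the strand of the gene. Capitals mark matches on either strand to the MEF2 motif, to the TATA box, searched as TATAAA, or to the CArG box bound by serum response factor.
Acta1 (chr8:123894776-123895025, minus strand): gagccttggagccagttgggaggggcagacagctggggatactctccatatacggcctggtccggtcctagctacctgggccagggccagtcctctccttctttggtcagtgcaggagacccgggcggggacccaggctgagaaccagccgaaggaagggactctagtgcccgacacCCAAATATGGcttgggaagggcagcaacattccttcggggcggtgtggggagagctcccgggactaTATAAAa
Myh1 (chr11:67199852-67200101, plus strand): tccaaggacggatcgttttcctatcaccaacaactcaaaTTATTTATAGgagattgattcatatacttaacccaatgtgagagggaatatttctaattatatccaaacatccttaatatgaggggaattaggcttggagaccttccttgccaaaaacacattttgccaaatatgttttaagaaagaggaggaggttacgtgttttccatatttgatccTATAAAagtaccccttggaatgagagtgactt
Asb5 (chr8:54550081-54550330, plus strand): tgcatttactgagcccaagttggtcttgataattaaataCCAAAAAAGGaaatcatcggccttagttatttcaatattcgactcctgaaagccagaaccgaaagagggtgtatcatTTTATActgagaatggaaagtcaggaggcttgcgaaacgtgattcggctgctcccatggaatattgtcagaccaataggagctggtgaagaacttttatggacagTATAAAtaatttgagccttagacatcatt
Pygm (chr19:6384158-6384407, plus strand): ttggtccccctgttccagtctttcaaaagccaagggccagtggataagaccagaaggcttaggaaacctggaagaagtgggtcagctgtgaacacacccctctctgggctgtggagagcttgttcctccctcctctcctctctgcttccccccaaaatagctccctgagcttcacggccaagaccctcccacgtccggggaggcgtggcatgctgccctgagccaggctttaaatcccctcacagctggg

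The Acta1 window held 1 CArG box and 1 TATA box, and the Myh1 window held 1 MEF2 match, overlapped by a TATA box, and a further TATA box near the start. The Asb5 window held 1 CArG box and 2 TATA boxes and ends at the first listed of several RefSeq starts, which lies inside the longer GENCODE span of this gene. The Pygm window held no such match. Motifs were also counted over windows that took in the 50 bases after the start. RefSeq windows of full length were available for 30 of the 38 muscle fibre genes in the table, and for 13601 of all its genes. A MEF2 match was found in 6 of the 30 (20%) and in 1.86% of all windows, a CArG box in 5 (16.7%) and 1.34%, and a TATA box in 7 (23.3%) and 8.24%. The shorter E-box CANNTG, the core bound by myogenic factors of the MyoD family, was found in 24 of the 30 (80%) and in 65.2% of all windows. These matches describe the letters and do not show that a factor was bound.

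The muscle fibre genes were a trace component of every library. Their summed counts were 4614, 3977 and 3237 in IC replicates 1, 2 and 3, and 9544, 10217 and 3872 in vehicle replicates 1, 2 and 3. This was 0.00599% to 0.0196% of all counts. On a scale of counts at equal library totals (CPM), the sums were 106, 86.6 and 59.9 after IC and 168, 196 and 96.5 after vehicle. Vehicle replicates 1 and 2 stood above every IC library, while vehicle replicate 3 lay between IC replicates 1 and 2, so the groups overlapped. The mean sum was 84.1 ± 23.1 CPM after IC and 154 ± 51.3 CPM after vehicle (SD, n = 3 each), a ratio of 0.548. In these bulk samples, fewer cells of a type and less RNA per cell cannot be told apart.

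**Figure D1:**
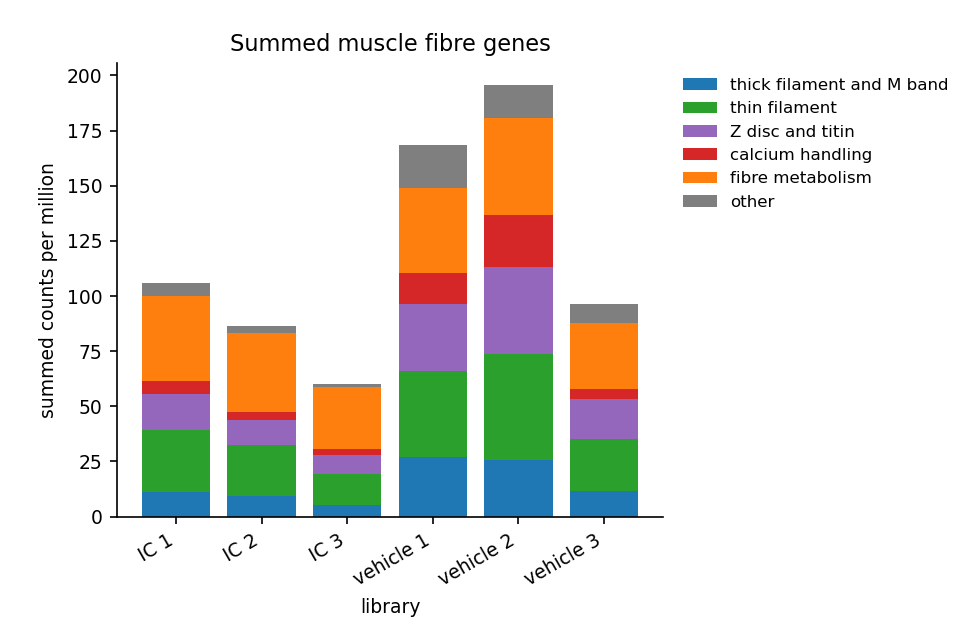
Summed CPM of the 38 muscle fibre genes in each library (bars, from 0), split by the role of the genes. Vehicle replicates 1 and 2 reach 168 and 196 CPM, and the other 4 libraries lie between 59.9 and 106 CPM.

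Ranked per exon length over all 6 libraries, the highest mean levels were those of Tnnt3 (10.3 RPKM), Pygm (7.84 RPKM), Asb5 (4.85 RPKM), Acta1 (4.84 RPKM) and Eno3 (4.16 RPKM). Atp2a1 followed at 1.57 RPKM, and Myh7, the slow and cardiac myosin heavy chain, was lowest at 0.0359 RPKM. The order of neighbours was not firm where they varied between libraries, since Asb5 ran from 0.713 to 10.4 RPKM and Acta1 from 0.904 to 13.6 RPKM, while Eno3 stayed within 3.76 to 4.50 RPKM. The non-muscle relatives of these genes were far more abundant. Actb, the cytoskeletal actin, had 571 to 739 RPKM, and the level of Acta1 was 0.130% to 1.84% of it. Atp2a2, the calcium pump of slow muscle and of non-muscle cells, had 63.4 to 79.5 RPKM, and the level of Atp2a1 was 0.509% to 6.41% of it. Pygm and Eno3 were closer to their relatives, at 35.6% to 54.1% of Pygb and 23.9% to 35.3% of Eno1, whereas Ckm was at 0.610% to 5.67% of Ckb and Pgam2 at 0% to 11.6% of Pgam1.

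**Figure D2:**
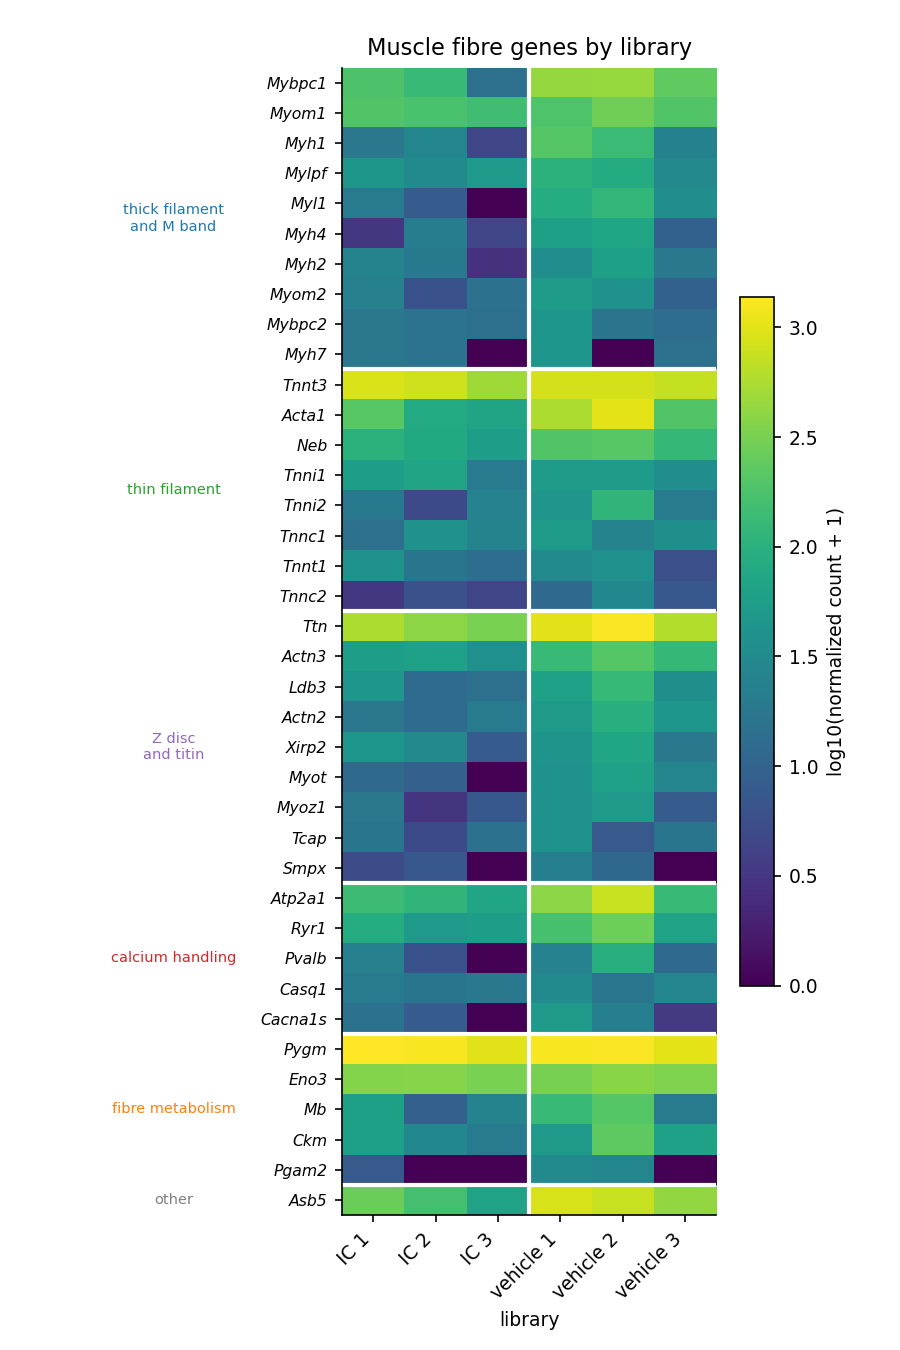
Log10 of the normalized count plus 1 (color) of the 38 muscle fibre genes (rows, grouped by role and ordered by mean) in the 6 libraries (columns). Tnnt3, Pygm and Eno3 keep a like color across the row, while most other rows are lighter in vehicle replicates 1 and 2 than in the IC libraries.

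To ask which of the genes differed after IC, the Wald test of DESeq2 was fitted across all 19925 tested genes, and a gene was called at an adjusted p under 0.05. Of the 35 muscle fibre genes tested, 7 were called lower after IC, namely Myh1, Myl1, Neb, Ttn, Actn2, Actn3 and Asb5. Over all tested genes, 1.07% were called lower. DESeq2 called 0 of the 35 higher, where 1.03% of all tested genes were called higher. At an unadjusted p under 0.05, DESeq2 had 18 of the 35 lower, against 4.88% of all tested genes, and 0 higher. Among all 19925 tested genes, 979 were higher at that p. The quasi-likelihood test of edgeR called 0 of the 35 lower, against 0.125% of all tested genes. At an unadjusted p under 0.05 it had 17 lower, against 4.84%, and 0 higher, where 955 of all tested genes were higher. Limma-voom called 0 in either direction, where it called 0.186% of all tested genes lower and 25 of the 19925 higher. It had 13 of the 35 lower at an unadjusted p under 0.05, against 5.04%. The 7 calls therefore rest on DESeq2, and 14 of the 35 genes had too few counts to be given an adjusted p by it.

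The median log2 fold change (IC over vehicle) of the 35 tested genes was −1.43, beside −0.00 for all tested genes. It was below 0 for 32 of the 35, where 50.4% of all tested genes were below 0. Of the 35, 14 reached 10 counts in fewer than 3 IC libraries, and so passed the minimum through vehicle libraries. The called genes Myh1 and Myl1 are among these 14. The median and the share below 0 therefore lean toward lower values after IC. So do the counts above of genes called lower and of genes lower at an unadjusted p under 0.05. Without the count minimum the median over the 38 genes in the table was −1.59, and 35 of the 38 were below 0. All IC libraries lay below all vehicle libraries for 8 of the 35 tested genes, against 7.67% of all tested genes, and for 9 of the 38 in the table.

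**Figure D3:**
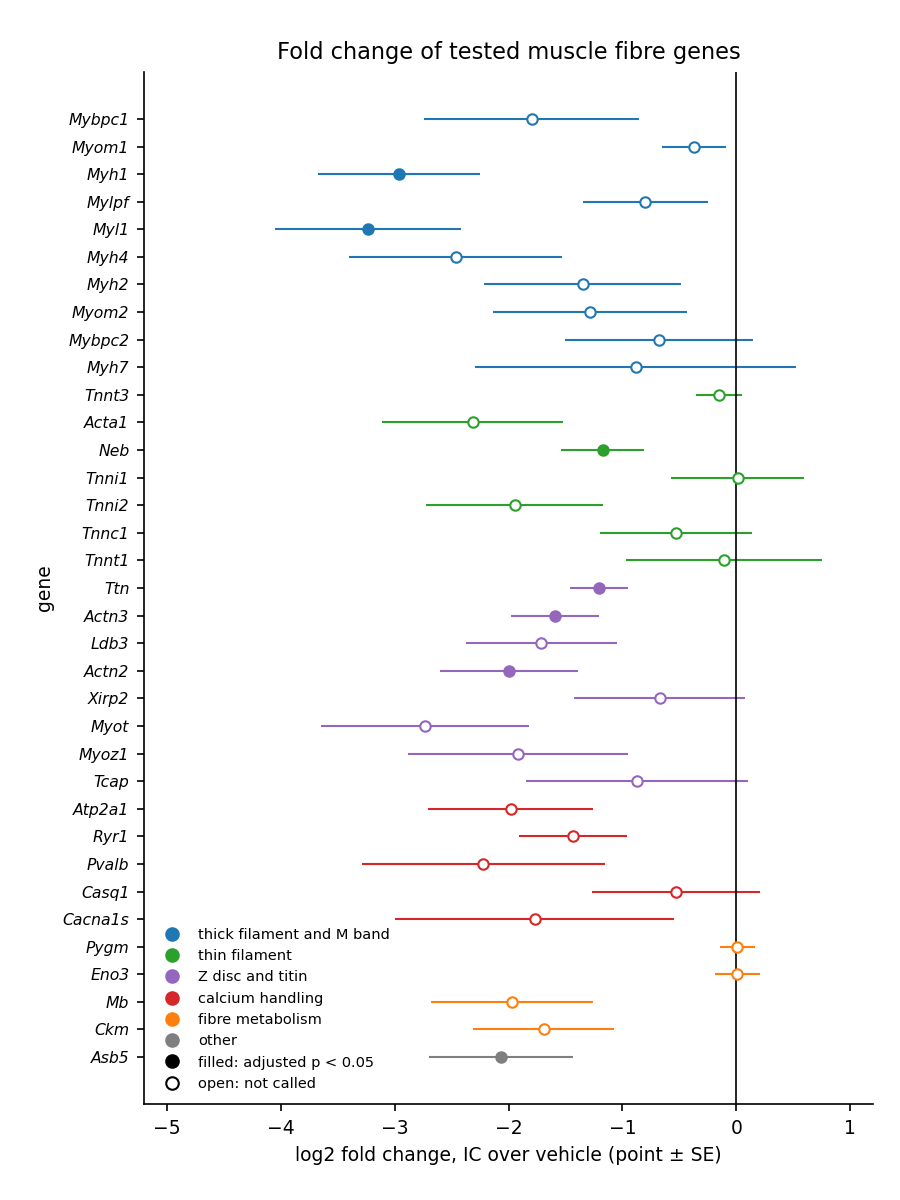
DESeq2 log2 fold change, IC over vehicle, with its standard error, for the 35 tested muscle fibre genes, colored by role. Filled points are the 7 genes called lower, and points at or near 0 include Pygm, Eno3, Tnnt3, Tnni1 and Tnnt1. Tnni1 and Tnnt1 have wider standard errors (0.587 and 0.859) than Pygm, Eno3 and Tnnt3.

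The thick filament genes included the lowest fold changes of the group. Myh1, the heavy chain of fast IIx fibres (chromosome 11, 67200052 to 67224575, GRCm38), had 16.5, 26.9 and 3.58 normalized counts in IC replicates 1 to 3 and 205, 135 and 23.1 in vehicle replicates 1 to 3. Vehicle replicates 1 and 2 were far above the rest, and vehicle replicate 3 lay below IC replicate 2, so the groups overlapped. The log2 fold change was −2.96 ± 0.713 (SE, n = 3 each), with a DESeq2 adjusted p of 0.00311. The call was lost without IC replicate 3 (DESeq2 adjusted p 0.0521), vehicle replicate 1 (0.170) or vehicle replicate 2 (0.0764). Myh1 lies beside its near-identical paralogues Myh2 and Myh4 on chromosome 11, so the split of reads among them is uncertain.

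Myl1, a light chain of fast myosin (chromosome 1, 66924295 to 66945404), had 18.7, 7.24 and 0 normalized counts after IC and 86.1, 120 and 34.0 after vehicle. The groups did not overlap. Its log2 fold change of −3.23 ± 0.815 had a DESeq2 adjusted p of 0.00579, and the call was lost without vehicle replicate 1 (0.0785) and with 1 surrogate variable (0.0595). Without IC replicate 2 or vehicle replicate 2, and with the TMM scaling of edgeR, DESeq2 gave Myl1 no adjusted p. The other thick filament genes were not called. Mybpc1, the slow type of myosin-binding protein C, had 182, 128 and 13.4 normalized counts after IC and 440, 448 and 233 after vehicle, so the groups did not overlap, with a log2 fold change of −1.80 ± 0.944 and a DESeq2 adjusted p of 0.468. IC replicate 3 stood far below the other IC libraries in this gene, which passed without that library (0.0157) and with the replicate number as a block (2.5e-05). Same-numbered libraries did not deviate together, so this block does not stand for a pairing. For Mybpc1 the adjusted p was 0.332 by edgeR and 0.158 by limma-voom.

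Myom1, a myomesin that links myosin filaments at the M band, was more even, with 194, 174 and 151 normalized counts after IC and 189, 288 and 193 after vehicle and a log2 fold change of −0.37 ± 0.278. The 10 thick filament and M band genes together summed to 11.2, 9.23 and 5.15 CPM after IC and 27.0, 25.6 and 11.7 CPM after vehicle, which did not overlap. All 10 had a fold change below 0, from −3.23 to −0.37.

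Among the thin filament genes, only Neb passed the DESeq2 threshold. Neb encodes nebulin, a giant protein that runs along the actin filament (chromosome 2, 52136647 to 52378474). It had 102, 78.6 and 54.7 normalized counts after IC and 195, 213 and 122 after vehicle, with no overlap. The log2 fold change was −1.17 ± 0.364 and the DESeq2 adjusted p was 0.0496, close to the threshold. The call held without IC replicate 1 or vehicle replicate 3 and was lost without any of the other 4 libraries, at DESeq2 adjusted p of 0.178 to 0.301. It was also lost with no count minimum (0.0507), total-count scaling (0.0566), independent filtering off (0.0593), the replicate number as a block (0.106) and 1 surrogate variable (0.191).

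Acta1, the skeletal muscle actin, had 210, 82.7 and 67.2 normalized counts after IC and 569, 1029 and 195 after vehicle. Vehicle replicates 1 and 2 were high, while vehicle replicate 3 was below IC replicate 1. The log2 fold change was −2.32 ± 0.796 with a DESeq2 adjusted p of 0.0995, so the gene was not called. It passed without IC replicate 1 or vehicle replicate 3, the libraries in which the groups overlapped, and with the replicate number as a block (DESeq2 adjusted p 9.16e-07). With all 6 libraries the adjusted p of Acta1 was 0.133 by edgeR and 0.223 by limma-voom. Actb, its cytoskeletal relative, had a log2 fold change of −0.04 (DESeq2 adjusted p 0.972).

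The most abundant troponin behaved otherwise. Tnnt3, the troponin T of fast fibres, had 914, 819 and 485 normalized counts after IC and 854, 874 and 731 after vehicle. IC replicate 1 was the highest of all 6 libraries and IC replicate 3 the lowest. A log2 fold change of −0.15 was fitted (95% interval −0.55 to 0.25), and DESeq2 gave an adjusted p of 0.90. Tnni2, the fast troponin I, had a log2 fold change of −1.94 and a DESeq2 adjusted p of 0.211, with 112 normalized counts in vehicle replicate 2 against 4.13 to 41.8 in the other libraries. Tnni1 and Tnnt1, the slow forms of troponin I and T, had fold changes of 0.01 and −0.11. Their 95% intervals were wide, at −1.14 to 1.16 and −1.79 to 1.57, and both include −1. Tnnc2, the fast troponin C, was not tested, and 74.0% of its exon bases are shared with Ube2c on the opposite strand.

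The Z disc and titin genes held 3 of the 7 calls. Ttn encodes titin (chromosome 2, 76703980 to 76982547) and had 572, 387 and 320 normalized counts after IC and 1001, 1332 and 606 after vehicle. The groups did not overlap, although vehicle replicate 3 and IC replicate 1 were close. The log2 fold change was −1.20 ± 0.255 with a DESeq2 adjusted p of 0.000392, the smallest of the 35. Among the DESeq2 fits the call was lost only without vehicle replicate 2 (0.0625). The adjusted p was 0.116 by edgeR and 0.108 by limma-voom.

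Actn3, the alpha-actinin of fast fibre Z discs (chromosome 19, 4861216 to 4877909), had 56.2, 61.0 and 36.7 normalized counts after IC and 134, 204 and 123 after vehicle. Every vehicle library stood well above every IC library. The log2 fold change was −1.59 ± 0.386 with a DESeq2 adjusted p of 0.0035. Among the DESeq2 fits this call too was lost only without vehicle replicate 2 (0.0786). For Actn3 the adjusted p was 0.0981 by edgeR and 0.107 by limma-voom. Actn2, the alpha-actinin found in all striated fibres (chromosome 13, 12269426 to 12340760), had 16.5, 11.4 and 17.9 normalized counts after IC and 48.4, 90.7 and 43.8 after vehicle, again without overlap. Its log2 fold change was −1.996 ± 0.604 with a DESeq2 adjusted p of 0.0417, and it was called in 0 of the 6 fits that left out a library. Without IC replicate 2 or vehicle replicate 2 it received no adjusted p, and the other 4 fits gave 0.0502 to 0.0958. The Actn2 call was also lost with independent filtering off (0.0503) and with the replicate number as a block (0.225). With TMM scaling or 1 surrogate variable, DESeq2 gave Actn2 no adjusted p.

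The non-muscle alpha-actinin Actn1 moved the other way, with 6.46 to 7.71 RPKM after vehicle and 9.48 to 12.01 RPKM after IC, with a log2 change of 0.53 and a DESeq2 adjusted p of 0.000963. It was not typical of the non-muscle relatives. Of 24 such genes tested, DESeq2 called 1 higher (Actn1) and 2 lower (Myh10 and Ckb), against 1.03% and 1.07% of all tested genes. Their median log2 fold change was −0.03, and Ckb had −0.42 (DESeq2 adjusted p 0.0176). Ldb3, a PDZ and LIM protein that binds alpha-actinin at the Z disc, had 43.0, 11.4 and 13.4 normalized counts after IC and 60.7, 125 and 35.3 after vehicle. Vehicle replicate 3 lay below IC replicate 1, and the log2 fold change of −1.71 ± 0.661 had a DESeq2 adjusted p of 0.182, and 0.0251 without IC replicate 1. The 9 Z disc and titin genes summed to 8.59 to 16.2 CPM after IC, against 17.9 to 39.5 CPM after vehicle.

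**Figure D4:**
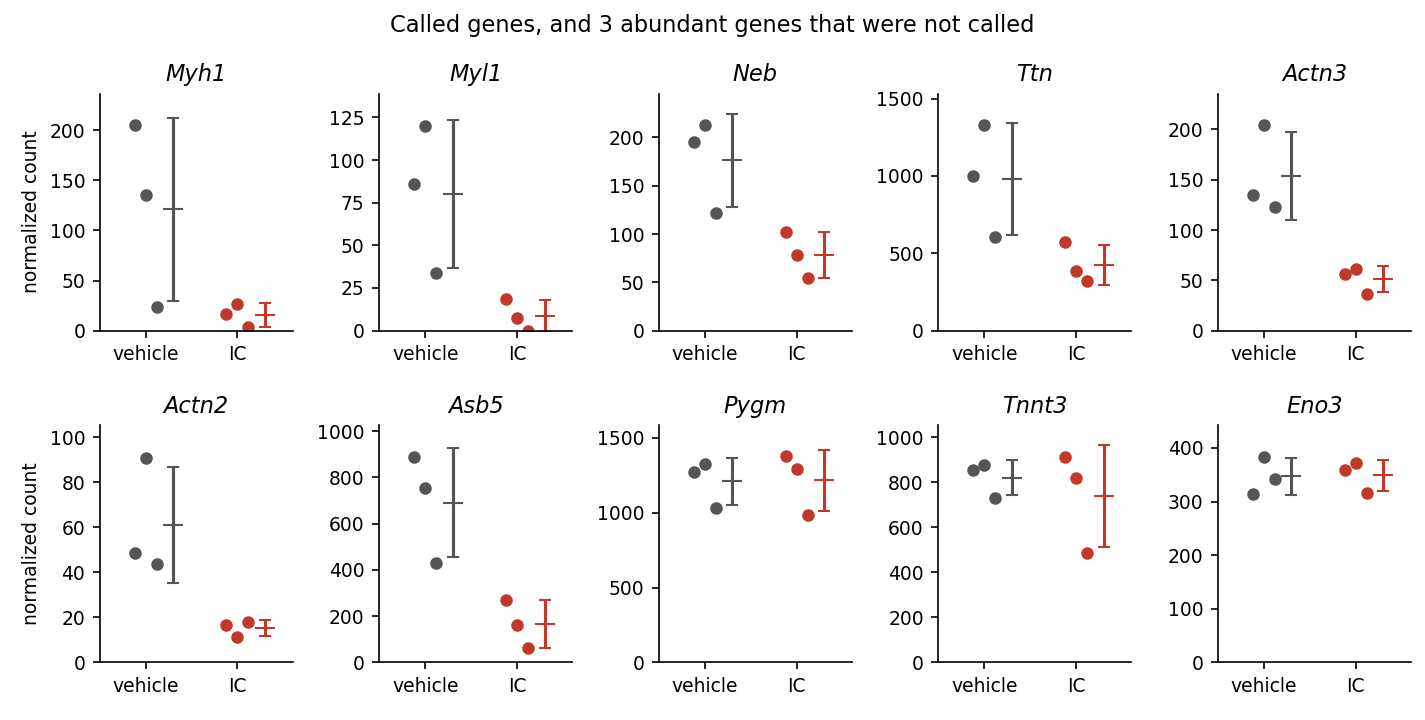
Normalized counts per library (points, replicates 1 to 3 from left to right) with mean ± SD beside them (bars run off the panel where they pass below 0), for the 7 genes called lower after IC and for Pygm, Tnnt3 and Eno3. The groups lie apart in 6 of the 7 called genes, and in Myh1 vehicle replicate 3 (23.1) is below IC replicate 2 (26.9).

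Calcium handling genes gave no call by DESeq2, with 3 of 5 lower at an unadjusted p under 0.05, against 4.88% of all tested genes. Atp2a1, the calcium pump of fast fibres, had 142, 111 and 68.1 normalized counts after IC and 387, 747 and 130 after vehicle. Vehicle replicate 2 was the highest and vehicle replicate 3 fell between IC replicates 1 and 2. Its log2 fold change was −1.98 ± 0.726 with a DESeq2 adjusted p of 0.142, and 21.9% of its exon bases are shared with Rabep2 on the opposite strand. Atp2a1 passed without vehicle replicate 3 (6.12e-07), with the replicate number as a block (0.000208) and with 1 surrogate variable (0.041). Its adjusted p was 0.169 by edgeR and 0.317 by limma-voom. Ryr1, the calcium release channel of skeletal muscle, had 86.0, 47.5 and 54.7 normalized counts after IC and 165, 279 and 63.2 after vehicle. Its log2 fold change of −1.43 ± 0.475 had a DESeq2 adjusted p of 0.0793 (0.00458 without vehicle replicate 3), and again vehicle replicate 3 lay below IC replicate 1.

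Pvalb, the calcium buffer parvalbumin of fast fibres, had 22.0, 5.17 and 0 normalized counts after IC and 23.8, 90.7 and 10.9 after vehicle. The high value was that of vehicle replicate 2, and DESeq2 gave no adjusted p to this gene. Cacna1s, the voltage sensor that opens the release channel, and Casq1, which stores calcium in the reticulum, had log2 fold changes of −1.77 and −0.53, also without an adjusted p. The 5 genes summed to 2.89 to 5.90 CPM after IC and 4.79 to 23.4 CPM after vehicle, so the groups overlapped.

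Fibre metabolism genes split by level. Pygm, the muscle glycogen phosphorylase, had 1375, 1289 and 986 normalized counts after IC and 1268, 1327 and 1029 after vehicle. Eno3, the muscle enolase, had 359, 371 and 316 after IC and 315, 384 and 343 after vehicle. In both genes the groups overlapped. The log2 fold change was 0.01 for Pygm (95% interval −0.29 to 0.31) and 0.01 for Eno3 (−0.38 to 0.40). The intervals of Pygm, Eno3 and Tnnt3 leave out a fold change of −1, which 22 of the 35 tested genes were below.

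Mb, the oxygen store myoglobin, had 59.5, 8.27 and 24.2 normalized counts after IC and 134, 206 and 19.5 after vehicle, with a log2 fold change of −1.97 ± 0.710 and a DESeq2 adjusted p of 0.130, which became 0.0344 without IC replicate 1 and 0.0307 without vehicle replicate 3. Here vehicle replicate 3 was below both IC replicate 1 and IC replicate 3, and 31.9% of the exon bases of Mb are shared with other genes. Ckm, the muscle creatine kinase, had a log2 fold change of −1.69 and a DESeq2 adjusted p of 0.141. Vehicle replicate 2 alone was high for Ckm, at 227 normalized counts against 17.9 to 60.8 elsewhere.

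Asb5, a protein with ankyrin repeats and a SOCS box, the domain that joins ubiquitin ligase complexes (chromosome 8, 54529580 to 54587842), had 271, 160 and 63.6 normalized counts after IC and 890, 753 and 430 after vehicle. The groups did not overlap. The fitted log2 fold change was −2.07 ± 0.631 with a DESeq2 adjusted p of 0.0438. The call held without IC replicate 1 or IC replicate 3 and was lost without IC replicate 2 (0.248), vehicle replicate 1 (0.214), vehicle replicate 2 (0.266) or vehicle replicate 3 (0.0744), and also with independent filtering off (0.0527) or 1 surrogate variable (0.202).

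Pygm, Tnnt3 and Eno3 were set against the rest after their values were seen, so the split is a description. Together they summed to 55.1, 52.2 and 36.9 CPM after IC and 52.4, 52.4 and 43.1 CPM after vehicle, a ratio of mean sums of 0.975. The other 35 genes in the table summed to 50.7, 34.4 and 23.0 CPM after IC, against 116, 143 and 53.4 CPM after vehicle. Every vehicle library was above every IC library in this sum, although vehicle replicate 3 was above IC replicate 1 by a small margin, and the ratio of mean sums was 0.346. The 3 genes made up 52.1% to 61.6% of the muscle fibre counts after IC and 26.8% to 44.7% after vehicle.

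**Figure D5:**
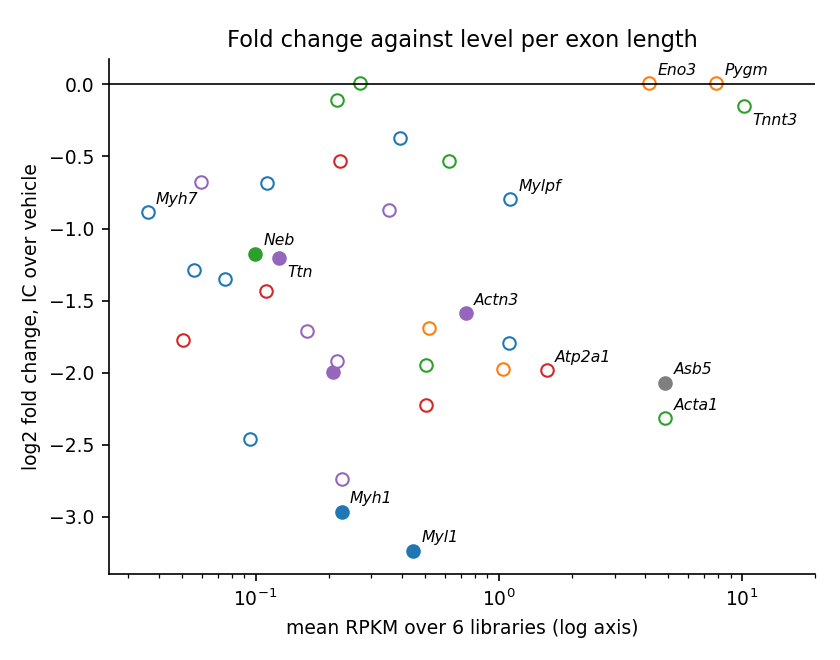
DESeq2 log2 fold change (IC over vehicle) against the mean RPKM over the 6 libraries (log axis) for the 35 tested muscle fibre genes, colored by role as in the plot of fold changes and filled where called lower. Tnnt3, Pygm and Eno3 lie near 0 at 4.16 to 10.3 RPKM, whereas Asb5 and Acta1, at 4.85 and 4.84 RPKM, lie below −2.

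Fast and slow paralogues were compared because they mark fibre types. The 14 fast fibre genes summed to 14.7 to 27.3 CPM after IC and 24.2 to 52.9 CPM after vehicle. DESeq2 called 3 of the 13 tested lower (Myh1, Myl1 and Actn3), against 1.07% of all tested genes. The median log2 fold change of the 13 was −1.92. Myh1 and Myl1 passed the count minimum through vehicle libraries, so this count of calls and this median lean toward lower values after IC. The 4 slow fibre genes summed to 1.13 to 2.85 CPM after IC and 1.79 to 3.79 CPM after vehicle, with a median log2 fold change of −0.32. DESeq2 and edgeR called 0 of them, and had 0 at an unadjusted p under 0.05. At that p, 4.88% and 4.84% of all tested genes were lower. Mybpc1, a slow-type protein outside this list, was added to it after its values were seen. The 5 genes then summed to 1.41 to 6.38 CPM after IC and 6.58 to 13.3 CPM after vehicle, which did not overlap, with 0 called by DESeq2 or edgeR (at an unadjusted p under 0.05, 0 and 1) and a median of −0.53. DESeq2 gave an adjusted p to 7 of the 13 fast genes, 1 of the 4 slow genes and 2 of the 5, and could not call the others. The difference between fast and slow genes was not tested. Within the troponin T pair, Tnnt3 held 97.1% to 98.7% of the RPKM after IC and 97.1% to 99.5% after vehicle. Within the troponin I pair, Tnni2 held 13.1% to 75.8% after IC and 57.9% to 83.9% after vehicle, which overlapped. Myh1 held 31.4% to 40.0% of the RPKM of Myh1, Myh2, Myh4 and Myh7 after IC and 40.5% to 62.2% after vehicle, from 10 to 76 counts of the family per IC library.

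Libraries within a group differed by a large margin. Vehicle replicate 2 had the highest normalized count for 22 of the 38 genes and vehicle replicate 1 for 12, whereas IC replicate 3 had the lowest for 19 and a count of 0 for 7. By counting error alone, a count of 0 allows up to 3 counts. Vehicle replicates 1 and 2 were both above every IC library for 25 of the 38 genes. Vehicle replicate 3 was below both other vehicle libraries for 31 genes and above every IC library for 12. These orders of the libraries were not counted over all tested genes. A trait of these genes and a trait of the libraries therefore cannot be told apart from them. Leaving out vehicle replicate 2 removed all 7 DESeq2 calls, with 10 of the 35 genes lower at an unadjusted p under 0.05, against 3.7% of all tested genes in that fit. Leaving out vehicle replicate 1, IC replicate 2 or IC replicate 3 left 2, 3 and 5 calls, and leaving out IC replicate 1 or vehicle replicate 3 gave 9. Over all tested genes, the fits without vehicle replicate 1, IC replicate 2 and IC replicate 3 called 343, 135 and 170 lower. Those without IC replicate 1, vehicle replicate 3 and vehicle replicate 2 called 230, 142 and 127, against 214 with all 6 libraries.

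A wider list of 75 other muscle fibre genes was read from the same fit. Its 71 genes present included 60 that were tested. Of these, 2 were called lower and 0 higher by DESeq2, against 1.07% and 1.03% of all tested genes. At an unadjusted p under 0.05, DESeq2 had 15 lower, against 4.88%, and 0 higher, where 979 of all 19925 tested genes were higher. The edgeR test called 0 in either direction, against 25 lower and 12 higher over all tested genes. The median of the log2 fold changes was −0.24. Lmod2, a leiomodin that nucleates actin, had 15.4, 17.6 and 0 normalized counts after IC and 80.4, 52.9 and 68.1 after vehicle, with a log2 fold change of −2.62 ± 0.788 and a DESeq2 adjusted p of 0.0393. Flnc, the filamin of muscle, was much more abundant, with 16162 to 19369 normalized counts after IC and 21862 to 24505 after vehicle. On the log2 scale the change was −0.40 ± 0.0884 with a DESeq2 adjusted p of 0.000688, and the call held when any of the 6 libraries was left out. Atp2a2 and Slc25a4, a mitochondrial carrier of ADP and ATP, were the other most abundant genes of the list and had fold changes of 0.13 and −0.21, neither called.

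Markers of satellite cells, the stem cells that lie against the muscle fibre, were read beside the fibre genes. Of 22 markers listed 18 were tested, and DESeq2 called 6 lower and 0 higher, against 1.07% and 1.03% of all tested genes. At an unadjusted p under 0.05, DESeq2 had 15 lower, against 4.88%, and 0 higher, where 979 of all 19925 tested genes were higher. The edgeR test called 1 lower, against 0.125%, and the median log2 fold change of the 18 was −0.97. All IC libraries lay below all vehicle libraries for 13 of the 18, against 7.67% of all tested genes. The 21 markers in the table summed to 874 to 1019 CPM in the IC libraries and 1069 to 1313 CPM in the vehicle libraries. Megf10, a receptor of satellite cells, had 567 to 725 normalized counts after IC and 1272 to 1832 after vehicle, with a log2 fold change of −1.25 ± 0.159. DESeq2 gave it an adjusted p of 8.17e-12 and edgeR 0.0141. Myf5, a myogenic transcription factor, had 151, 97.2 and 26.0 normalized counts after IC and 449, 416 and 291 after vehicle, with IC replicate 3 the lowest, as for 19 of the 38 fibre genes. Chodl, Itga7, Dag1 and Ncam1 were called with fold changes of −0.57, −0.44, −0.43 and −0.69, and Dag1 and Ncam1 are also used by other cell types. Peg3, Sdc4 and Musk, named after their values were seen, were not called, at log2 fold changes of 0.10, −0.04 and −0.01. Musk also stands in the wider list of muscle fibre genes. So does Chrna1, whose log2 fold change of −2.45 was the lowest of the markers. The satellite cell list and the wider list are therefore not separate.

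Other cell types were read from marker lists in the same way, beside 1.07% of all tested genes called lower by DESeq2 and 1.03% called higher. Endothelial markers summed to 224 to 310 CPM after IC and 308 to 368 CPM after vehicle, with 3 of 12 called lower by DESeq2, and smooth muscle and pericyte markers to 601 to 722 CPM and 679 to 729 CPM, with 1 of 11 called lower. Schwann cell markers summed to 432 to 548 CPM after IC and 483 to 525 CPM after vehicle, with 1 of 10 called lower (Ncam1), and chondrocyte and bone markers to 632 to 733 CPM and 378 to 603 CPM, with 1 of 5 tested called higher (Acan). Macrophage markers were at 24.4 to 36.4 CPM after IC and 28.0 to 33.4 CPM after vehicle, with Ptprc, Adgre1 and Tyrobp absent from the table, adipocyte markers at 3.48 to 5.36 CPM and 5.71 to 6.26 CPM, and erythroid markers at 2.23 to 2.79 CPM and 0.873 to 2.52 CPM. In these last lists DESeq2 and edgeR each called 0 markers, and 0 at an unadjusted p under 0.05. At that p, DESeq2 had 973 of all 19925 tested genes lower and 979 higher. The 12 fibroblast markers summed to 44619 to 46367 CPM after IC, against 45541 to 55413 CPM after vehicle, and DESeq2 called 3 lower (Col3a1, Lum and Clic5) and 1 higher (Prg4). The part of satellite cells, vessel cells or any other cell type in the fall of the fibre genes was not tested.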

How the data were processed

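RNA of flow-sorted synovial fibroblasts was sequenced in 3 IC and 3 vehicle libraries, grouped by their titles. The authors deposited raw read counts for each gene, made with Trim Galore, FastQC, HISAT2 (build mm10) and featureCounts. Tool versions, the annotation and strand use by the counter are not given in the sources used here. The library kit named in the labels is not that of the study's methods. The methods also name sva for batch effects, but no batch is labelled. The 6 per-sample files equalled their columns in the combined table.

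Genes that reached 10 counts in 3 or more libraries entered DESeq2 (version 1.42.0, R 4.3.3) with default settings, the workflow that the study's methods name, and with treatment as the only term, at a Benjamini-Hochberg adjusted p under 0.05 over all 19925 genes. Fold changes are unshrunken, 95% intervals are 1.96 SE on either side, and normalized counts are counts divided by DESeq2 size factors. RPKM used exon lengths of GENCODE M21 (GRCm38), found for 98.1% of symbols. Promoters came from RefSeq (GRCm38.p6), at the first start listed for a gene. The code was tested on simulated data.

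Alternatives were edgeR (4.0.16), limma-voom (3.58.1), other scalings and filters, a replicate block, 1 surrogate variable from sva (3.50.0) and each library left out. The slow fibre list with Mybpc1 was added after seeing the data. Genes named in full were those called by DESeq2 or edgeR, the 3 of each role with the highest mean count, and, from the other muscle fibre and satellite cell lists, called genes and the 3 of highest mean. Other genes were named after their values were seen. The genes and lists were chosen with earlier results of these data known.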

Additional observations from a re-analysis of the deposited data

How the results depend on the processing

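The number of muscle fibre genes called lower (7 with DESeq2) was 0 with edgeR and with limma-voom, 4 where the mean had to reach 100 normalized counts (a minimum that Myh1, Myl1 and Actn2 did not reach), 4 with independent filtering off and 4 with 1 surrogate variable, whose score set vehicle replicate 2 (0.908) apart from the other libraries (−0.262 to −0.129). It ran from 0 to 9 when 1 library was left out, and other scalings, no count minimum or no Cook's cutoff gave 5 to 7. Over all tested genes, 214 were called lower and 205 higher by DESeq2, 25 and 12 by edgeR, 37 and 25 by limma-voom, and 127 to 343 and 124 to 328 when 1 library was left out. With a replicate block, 8 muscle fibre genes were called lower, of which 5 were among the 7, since Neb (0.106) and Actn2 (0.225) were lost and Acta1, Mybpc1 and Atp2a1 gained, and 183 genes lower and 137 higher over all tested genes. Same-numbered libraries did not deviate together (r of −0.0918, −0.165 and 0.025 over 13435 genes), so the number was not taken to pair them.

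The fold change of Pygm turned to −0.0251 with limma-voom, and when 1 library was left out it ran from −0.0932 to 0.140 for Pygm, from −0.0611 to 0.0875 for Eno3 and from −0.333 to 0.0786 for Tnnt3. The ratio of summed CPM stayed within 0.378 to 0.635 and the median fold change within −1.78 to −1.03 over the alternatives. Low counts limit most of these genes, 22 of the 38 having a mean under 50 normalized counts.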
